A study of Danio rerio with 6 samples.

Results

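GATA factors are zinc finger transcription factors named after the short DNA motif they bind. In vertebrates Gata1 drives the formation of red cells and thrombocytes, Gata2 maintains blood stem and progenitor cells, and Gata3 directs T cell development. In mammals Gata3 is also needed for the nephric duct and stays on in the collecting duct, while Gata4, Gata5 and Gata6 act mainly in heart, gut and gonad. In fish the kidney is both an excretory organ and the main site of adult blood formation, so duct and blood roles of the family meet in 1 tissue.

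The family was taken as every probe set whose single gene symbol was gata1a, gata2a, gata3 or another gata1 to gata6 gene. This rule found 6 probe sets for 6 genes, namely gata1a, gata2a, gata3, gata4, gata5 and gata6, among 15502 tested probe sets, and each gene had 1 probe set. The paralogs gata1b and gata2b were not analysed here. Adult Tg(jam1a:EGFP) zebrafish, in which the promoter of the tight junction gene jam1a drives EGFP, gave 3 groups of 2 arrays. These were irradiated collecting ducts, from fish given 25 Gy of X-rays, unirradiated collecting ducts, and whole kidney, for which no irradiation is stated. All groups carried the transgene, each array held a pool of 5 fish, and the ducts were isolated under a fluorescent microscope. The irradiated arrays are recognised by the prefix of their titles together with the design text. The sources used here give neither the fish's ages nor the time after irradiation. The replicates are independent pools, per the design text.

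Levels are log2 RMA values, so 1 unit is a doubling, and array medians lay between 5.82 and 5.88. A level under these medians cannot be taken as above background. Differences come from limma, with p values adjusted by Benjamini-Hochberg over all tested probe sets and an adjusted p under 0.05 as the threshold. Replicates were less alike in whole kidney (root mean square SD 0.465) than in irradiated (0.25) or unirradiated ducts (0.246). The hybridisation controls averaged 9.70 and 9.85 in irradiated ducts, against 10.86 and 11.37 in unirradiated ducts, with 8.73 and 10.45 for whole kidney. Centred on these controls, the median difference of all probe sets was -1.52 between unirradiated ducts and kidney and -0.235 between irradiated ducts and kidney, so directions below are relative to the median transcript. As a measure of RNA quality, the 3' signal of GAPDH exceeded its 5' signal by 1.13 and 0.969 in irradiated ducts, 1.16 and 2.52 in unirradiated ducts, and 0.555 and 0.913 in whole kidney. This excess was larger in every duct array than in both kidney arrays and stood apart in unirradiated duct replicate 2, and its part in the differences below was not tested. The dissected ducts held blood transcripts beside duct transcripts. The ammonia transporter gene rhcgb, a marker of duct cells, read 11.32 and 10.87 in irradiated ducts, 10.99 and 10.81 in unirradiated ducts, and 7.07 and 8.03 in whole kidney. The alpha globin gene hbaa1 read 13.77 and 13.56 in irradiated ducts, 13.19 and 13.66 in unirradiated ducts, and 14.38 and 14.08 in whole kidney.

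The first question was which GATA factors set unirradiated ducts apart from whole kidney. The family split: gata3 was 7.77-fold and gata2a 3.49-fold higher in ducts, gata1a had its highest readings in whole kidney, and gata4, gata5 and gata6 stayed under the array medians in all 6 arrays. In this comparison 2 of 6 members passed the threshold, both upward. Of all probe sets 7.26% passed, 4.27% upward and 2.99% downward, and 26.9% had an unadjusted limma p under 0.05. The median difference was -0.04 over the 6 members and 0.01 over all probe sets.

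**Figure D1:**
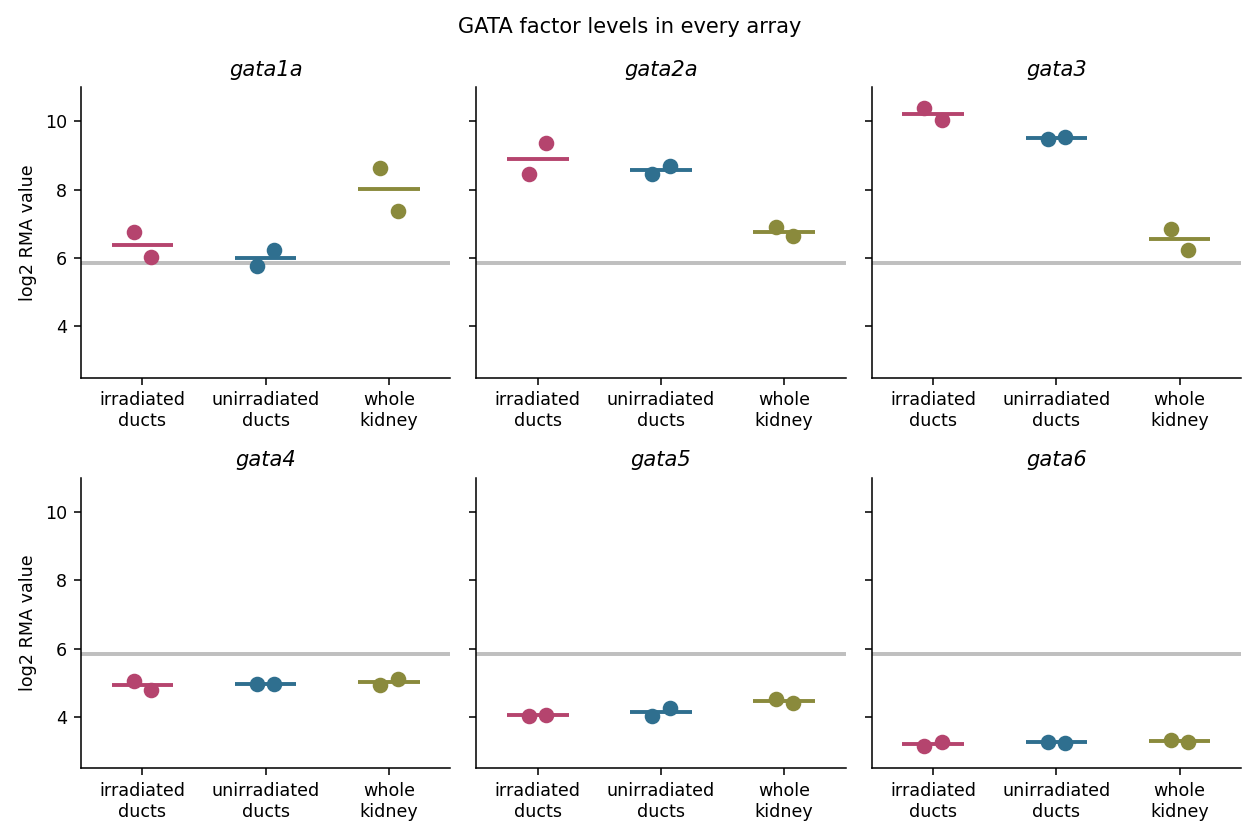
Log2 RMA value of each GATA factor in every array. Points are arrays (2 per group), bars are group means, and the grey band spans the array medians, 5.82 to 5.88. The duct points of gata2a and gata3 all lie above the kidney points, those of gata1a all lie below them, and gata4, gata5 and gata6 lie under the band in every array.

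The factor with the largest difference was gata3. It read 10.40 and 10.04 in irradiated ducts, 9.47 and 9.53 in unirradiated ducts, and 6.86 and 6.23 in whole kidney. Every duct array lay above both kidney arrays, and the unirradiated duct arrays nearly coincided. Unirradiated ducts averaged 9.50 ± 0.04 and whole kidney 6.55 ± 0.44 (SD, n = 2 each). The log2 fold change was 2.96 ± 0.26 SE, with a 95% interval of 2.32 to 3.59 (limma, adjusted p = 0.00643). The call was lost without unirradiated duct replicate 1 (2.99, adjusted p = 0.0842) or replicate 2 (2.93, adjusted p = 0.0673), where 0 probe sets of any gene passed. Centred on the hybridisation controls it was 1.43 (adjusted p = 0.126).

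The second factor higher in ducts was gata2a, whose paralog gata2b was not analysed here. Gata2 roles in blood stem cells, endothelium and neurons cannot be assigned to either paralog from these arrays. The gata2a probe set read 8.46 and 9.36 in irradiated ducts, 8.46 and 8.71 in unirradiated ducts, and 6.90 and 6.66 in whole kidney. No duct array overlapped the kidney arrays, and irradiated replicate 2 stood highest. Unirradiated ducts averaged 8.58 ± 0.18 and whole kidney 6.78 ± 0.17 (SD, n = 2 each), a log2 fold change of 1.81 ± 0.32 SE with a 95% interval of 1.02 to 2.59 (adjusted p = 0.0322). The call was lost without unirradiated duct replicate 1 (1.93, adjusted p = 0.145) or 2 (1.68, adjusted p = 0.185) and with array weights (1.81, adjusted p = 0.0813). Centred on the hybridisation controls it was 0.28 (adjusted p = 0.748).

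The erythroid factor gata1a ran the other way. It read 6.78 and 6.02 in irradiated ducts, 5.76 and 6.23 in unirradiated ducts, and 8.65 and 7.38 in whole kidney. Irradiated duct replicate 1 had the highest duct reading and unirradiated duct replicate 1, the lowest, was under the array medians. Both kidney arrays lay above all duct arrays, and the kidney arrays differed from each other by more than any other pair of replicates in the family. The log2 fold change of unirradiated ducts against kidney was -2.02 ± 0.48 SE, with a 95% interval of -3.19 to -0.84, and did not pass (adjusted p = 0.0626). Without whole kidney replicate 2 it was -2.65, and without whole kidney replicate 1 it was -1.38. The 13 alternatives, those with an array left out among them, gave no call in 10. With all arrays kept it passed among probe sets at or above the median mean (-2.02, limma, adjusted p = 0.0493). It also passed when centred on the hybridisation controls (-3.55, adjusted p = 0.00114), where the median difference of all probe sets was -1.52. That shift is shared by all probe sets, and the p value does not allow for this. Fewer cells of a type and less RNA per cell cannot be told apart in these bulk samples.

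The heart and gut factors were low everywhere. The gata4 probe set ranged from 4.79 to 5.12 over the 6 arrays, gata5 from 4.03 to 4.52 and gata6 from 3.16 to 3.32. None of their 9 group differences passed. The widest was that of gata5 between irradiated ducts and kidney (-0.42, 95% interval -0.82 to -0.02, adjusted p = 0.169). Duct arrays were lower than both kidney arrays for gata5, while for gata4 and gata6 the groups overlapped. Between unirradiated ducts and kidney the groups did not overlap for 4 of the 6 GATA probe sets, 2 of them higher and 2 lower in ducts. The same held for 56.6% of all probe sets, 28.9% higher and 27.7% lower.

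**Figure D2:**
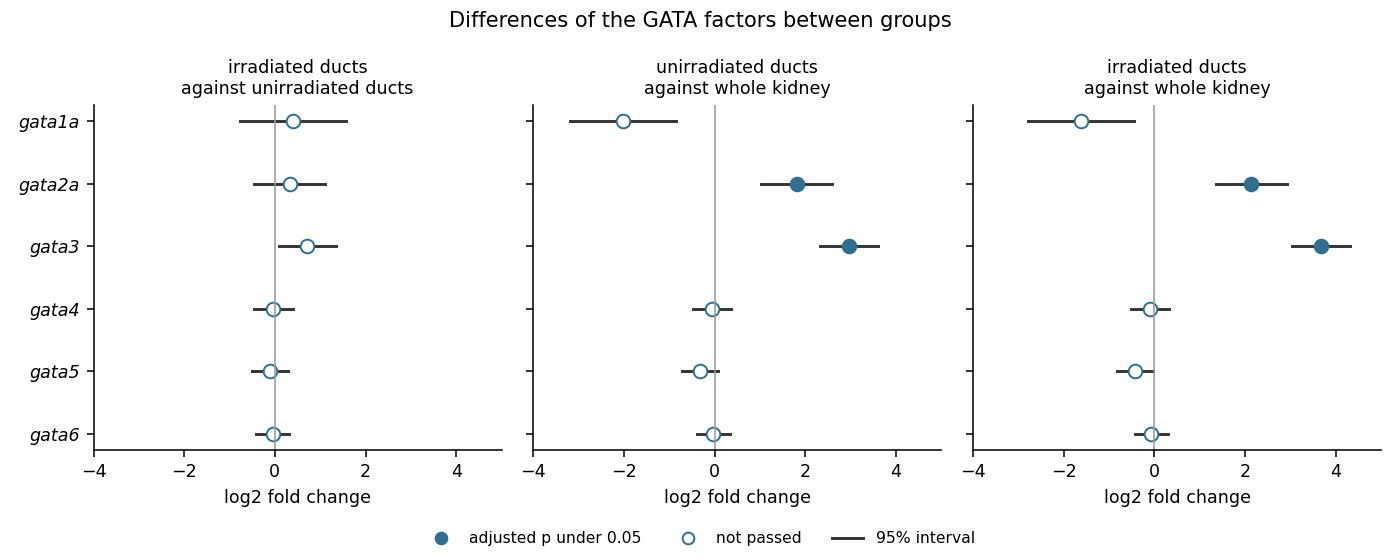
Log2 fold change of each GATA factor in the 3 comparisons, with limma's 95% intervals as lines. Filled circles passed an adjusted p of 0.05, open ones did not, and positive values mean higher in the group named first. The circles of gata2a and gata3 are filled in both comparisons with whole kidney and none is filled between irradiated and unirradiated ducts.

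The second question was what irradiation did to these factors in the ducts. No GATA probe set passed, where 0.168% of all probe sets did, 0.0774% upward and 0.0903% downward. At an unadjusted limma p under 0.05 the share was 14.3%, and 1 GATA probe set, gata3, was among these. The median difference was 0.14 over the 6 members and -0.05 over all probe sets. For gata3 both irradiated arrays lay above both unirradiated ones, which held for 1 of 6 members. Groups that did not overlap were seen for 56.8% of all probe sets, 23.8% higher and 33% lower. The log2 fold change of gata3 was 0.72 ± 0.26 SE, with a 95% interval of 0.08 to 1.35, an unadjusted p of 0.0329 and an adjusted p of 0.317. For gata2a irradiated ducts averaged 8.91 ± 0.64 and unirradiated ducts 8.58 ± 0.18 (SD, n = 2 each). Its difference of 0.33 ± 0.32 SE (95% interval -0.46 to 1.11, adjusted p = 0.68) was -0.13 without irradiated duct replicate 2. For gata1a the groups overlapped, and the difference was 0.40 ± 0.48 SE (95% interval -0.77 to 1.58, adjusted p = 0.74). These intervals leave room for a change of over 2-fold in gata1a, gata2a and gata3, while those of gata4, gata5 and gata6 lay within -0.51 and 0.39. As the readings of gata4, gata5 and gata6 were under the array medians throughout, their narrow intervals cannot bound a change in these transcripts. Centred on the hybridisation controls, where the median difference of all probe sets was 1.30, the differences of gata4, gata5 and gata6 were 1.31, 1.24 and 1.30.

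The comparison of irradiated ducts with whole kidney uses the same kidney arrays as the first and is given for its own values. Again gata3 (3.67 ± 0.26 SE, 12.8-fold, adjusted p = 0.00252) and gata2a (2.13 ± 0.32 SE, 4.38-fold, adjusted p = 0.015) were higher in ducts. The 2 of 6 members called stand beside 10.5% of all probe sets, 6.21% upward and 4.24% downward, with 26.4% at an unadjusted p under 0.05. The gata2a call was lost without irradiated duct replicate 2 (1.68, adjusted p = 0.0553) and when centred on the hybridisation controls (1.95, adjusted p = 0.378). The difference of gata1a was -1.62 ± 0.48 SE and did not pass (limma, adjusted p = 0.0947), nor did it in 12 of 13 alternatives. Leaving out single arrays gave -2.25 (without whole kidney replicate 2) to -0.98 for gata1a. Here too 4 of 6 members had groups that did not overlap, 2 higher and 2 lower, against 55.3% of all probe sets, 23.4% higher and 31.9% lower.

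GATA factors work in complexes, and 14 genes of partners and opponents were measured. In unirradiated ducts against kidney 2 were lower, 1 was higher and 11 did not pass, with a list median of -0.28 beside 0.01 over all probe sets. The gene tal1, whose product joins Gata1 or Gata2 on blood genes, read 4.86 and 3.84 in irradiated ducts, 3.81 and 4.03 in unirradiated ducts, and 6.05 and 6.18 in whole kidney; for unirradiated ducts against kidney the difference passed (-2.20 ± 0.34, adjusted p = 0.024). As all 4 duct levels were below the medians, the size of this difference is uncertain. The globin regulator klf1, itself a Gata1 target, was lower as well (-2.23 ± 0.40, adjusted p = 0.0341). The bridging protein gene ldb1a was higher (0.81 ± 0.15, adjusted p = 0.0376), while its other probe set read 0.22 (adjusted p = 0.509). In irradiated ducts against kidney 4 were lower and 1 was higher, including tal1, klf1 and ldb1a. The other 2 lower genes were spi1b, the gene of the myeloid factor Pu.1 that opposes Gata1 (-2.89 ± 0.41, adjusted p = 0.0134), and fli1 (-0.92 ± 0.21, adjusted p = 0.0496), whose other probe set did not pass (-0.69, adjusted p = 0.154). Between irradiated and unirradiated ducts 0 of 14 passed, or 1 without either kidney array, with spi1b at -1.96 ± 0.41 (adjusted p = 0.177). The other spi1b probe set passed in both kidney comparisons (-3.14 in irradiated ducts, adjusted p = 0.00373, and -1.87 in unirradiated ducts, adjusted p = 0.0208). Without either unirradiated array 0 of 14 partner genes passed in unirradiated ducts against kidney, and without irradiated duct replicate 2 the same was true of irradiated ducts.

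Erythroid genes, the main field of Gata1, were lower in unirradiated ducts for 9 of 24 measured genes and higher for 0, with a list median of -1.60. Over all probe sets 2.99% were lower in unirradiated and 4.24% in irradiated ducts than in kidney. The haem synthesis gene urod read 6.21 and 6.25 in unirradiated ducts against 9.25 and 8.43 in whole kidney (-2.61 ± 0.28, adjusted p = 0.0107), and the beta globin gene hbba2 was lower as well (-1.63 ± 0.28, adjusted p = 0.0307). The remaining 15 did not pass, among them alas2, the first enzyme gene of haem synthesis (-2.04 ± 0.54, limma, adjusted p = 0.082). The other measured defining markers, hbaa1 (-0.81 ± 0.23, adjusted p = 0.0902) and slc4a1a (-2.20 ± 0.98, adjusted p = 0.218), did not pass either. In irradiated ducts against kidney 7 of 24 were lower, all of them among the 9. The unirradiated count was 0 without either unirradiated duct array, 5 without either irradiated duct array and 16 without whole kidney replicate 2. The irradiated count was 1 without irradiated duct replicate 2, 4 without either unirradiated array and 13 without whole kidney replicate 2. Irradiated against unirradiated ducts had 0 of 24 past the threshold, with a list median of 0.03 and 13 of 24 differences above 0. The smallest p was that of hbba2 (-1.96 ± 0.28, limma, adjusted p = 0.103). Without either kidney array 1 of the 24 passed. The mean log2 value over the 24 genes was 7.46 and 6.93 in irradiated ducts, 7.16 and 7.43 in unirradiated ducts, and 8.81 and 8.40 in whole kidney. Within each group the replicate with the higher mean also had the higher gata1a reading. The part of erythroid content in the gata1a readings was not tested.

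Blood stem and progenitor genes are a field of Gata2, of whose paralogs only gata2a was analysed here, and none was called higher in ducts. Of 17 measured, 3 were lower in unirradiated ducts than in kidney, 0 were higher and 14 did not pass, with a list median of -0.67. The share of all probe sets called lower was 2.99% in unirradiated and 4.24% in irradiated ducts. Beside tal1, the lower genes were myb (-1.15 ± 0.24, adjusted p = 0.0466), a regulator of stem and progenitor cells, and drl (-2.88 ± 0.56, adjusted p = 0.0399), a zinc finger gene of blood. In irradiated ducts against kidney 8 of 17 were lower and 0 higher, among them the chemokine receptor gene cxcr4b (-3.25 ± 0.30, adjusted p = 0.00428). Without either unirradiated array 0 passed in unirradiated ducts and 4 in irradiated ducts. Without irradiated duct replicate 1 or 2 the irradiated count was 3 or 1 and the unirradiated count 1. Without whole kidney replicate 2 the unirradiated count was 6. Endothelium is another site of Gata2. Its receptor gene kdrl ranged from 9.74 to 10.24 over the 6 arrays, with unirradiated ducts overlapping both other groups. It did not pass for unirradiated ducts against kidney (0.07 ± 0.21, limma, adjusted p = 0.865). Both irradiated arrays lay above both kidney arrays, as was true of 23.4% of all probe sets. That difference did not pass either (0.19 ± 0.21, adjusted p = 0.654). Of 10 endothelial genes 2 were lower in unirradiated ducts, tal1 and tie1 (-1.02 ± 0.22, limma, adjusted p = 0.0482), and 0 were higher. Both unirradiated tie1 readings (4.82 and 5.08) and that of kidney replicate 2 (5.80) were below the medians. The size of the tie1 difference is therefore uncertain. Against kidney, irradiated ducts were lower in tal1 and fli1. Both genes are also on the partner list and the stem and progenitor list, so their calls here are no separate results. For unirradiated ducts the endothelial count was 0 without either unirradiated array, 1 without either irradiated array or kidney replicate 1, and 3 without kidney replicate 2. For irradiated ducts it was 0 without either unirradiated array or irradiated replicate 2, 1 without irradiated replicate 1 or kidney replicate 1, and 3 without kidney replicate 2. Between irradiated and unirradiated ducts no stem, progenitor or endothelial gene passed, though 2 stem and progenitor genes did without either kidney array.

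Only collecting ducts, in which gata3 was high, were dissected, and no distal tubule was measured apart. Genes of distal tubule and collecting duct were higher in unirradiated ducts for 11 of 31 measured genes and lower for 0, with a list median of 0.74. Over all probe sets 4.27% were higher in unirradiated and 6.21% in irradiated ducts than in kidney. The lists were chosen with earlier results of these data known. The forkhead gene foxa1 (4.43 ± 0.25, adjusted p = 0.00374), the sodium pump gene atp1a1a.3 (3.01 ± 0.29, adjusted p = 0.008) and rhcgb (3.35 ± 0.35, adjusted p = 0.00992) were among the leading ones. As both kidney readings of foxa1 (4.87 and 5.53) were below the medians, the size of its difference is uncertain. The carbonic anhydrase gene ca2 was higher by 1.64 ± 0.16 (adjusted p = 0.00845) and, by its other probe set, by 2.01. The probe set that stood for slc12a3, named after its values were seen, did not pass (-0.14, limma, adjusted p = 0.872). The other slc12a3 probe set, left out of the counts, was lower in unirradiated ducts than in kidney (-2.71, adjusted p = 0.0349). It did not pass in irradiated ducts against kidney (0.09, adjusted p = 0.939) or against unirradiated ducts (2.80, adjusted p = 0.137). The nephric duct factor pax2a, which acts upstream of Gata3 in mammals, read 10.21 and 10.25 in irradiated ducts, 10.21 and 9.69 in unirradiated ducts, and 7.39 and 8.71 in whole kidney. It passed in irradiated ducts against kidney (2.19 ± 0.44, adjusted p = 0.0344) and not in unirradiated ducts (1.90 ± 0.44, adjusted p = 0.0604), where its other probe set read 0.31. Irradiated ducts against kidney had 15 of 31 higher, with all 11 among them, and 0 were lower. The unirradiated count was 0 without either unirradiated duct array and 6 without either irradiated one. The irradiated count was 6 and 7 without irradiated duct replicates 1 and 2, and 9 without either unirradiated array. Irradiated against unirradiated ducts had 0 of 31 past the threshold, with a list median of 0.03.

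T cells are another known site of Gata3. The T cell receptor gene trac read 4.59 and 4.75 in irradiated ducts, 7.59 and 7.14 in unirradiated ducts, and 7.22 and 6.96 in whole kidney. The difference of unirradiated ducts from kidney did not pass (0.27 ± 0.21 SE, adjusted p = 0.458). Irradiated ducts were lower than unirradiated ones (-2.69 ± 0.21, adjusted p = 0.0272), at a level below the medians. Its other 2 probe sets gave -0.03 and -0.86 for the same comparison and did not pass. The defining gene rag1 ranged from 4.18 to 5.18 over the 6 arrays, all under the medians, and passed in no comparison. Of 6 lymphoid genes measured, 0 passed in unirradiated ducts against kidney, 1 (trac) was lower after irradiation, and 2 (trac and rag2) were lower in irradiated ducts than in kidney, or 1 without either array of either duct group or without kidney replicate 1. The mean over the 6 genes was 4.45 and 4.49 in irradiated ducts, 5.32 and 5.37 in unirradiated ducts, and 5.21 and 5.17 in whole kidney. At most 1 of the 6 was above the array median in any array. The trac call after irradiation was lost without any 1 of the 4 duct arrays, as were those of all other probe sets.

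Gata1 and Gata2 also act in mast cells and granulocytes. The list for these cells, too, was chosen with earlier results of these data known. Its counts beside the share of all probe sets are therefore no test. Of 14 genes of these cells, 3 were lower in irradiated than in unirradiated ducts and 0 higher, where 0.0903% of all probe sets were lower. These were the mast cell protease gene cpa5 (-2.50 ± 0.25, adjusted p = 0.0461), the lysozyme gene lyz (-2.97 ± 0.16, adjusted p = 0.0149) and ptprc, the gene of the leukocyte surface protein CD45 (-1.86 ± 0.18, adjusted p = 0.039). The neutrophil peroxidase gene mpx, named after its values were seen, ran the other way at 1.47 ± 0.40 and did not pass (adjusted p = 0.246). Its other 3 probe sets gave 2.68, 1.36 and -0.54 and did not pass either. Leaving out any 1 of the 4 duct arrays lost the calls of all probe sets in this comparison, so the loss was not particular to these 3 genes. Of the 14 genes, 1 passed when centred on the hybridisation controls. Unirradiated ducts were lower than kidney for 4 of the 14 genes, and irradiated ducts were lower for 9 and higher for 1, the NADPH oxidase subunit gene cyba (1.26, adjusted p = 0.0375), which is named after its values were seen. The other cyba probe set did not pass (0.24, adjusted p = 0.44). For mpx the probe set that stood for the gene did not pass against kidney in irradiated ducts (1.46, adjusted p = 0.0791), while 2 others were higher (3.01, adjusted p = 0.0339, and 1.18, adjusted p = 0.0406) and the last gave -0.74 (adjusted p = 0.0523). The unirradiated count was 0 without either unirradiated array, 1 without either irradiated array and 8 without whole kidney replicate 1, and the irradiated count was 6 without either irradiated array. Neither gata1a nor gata2a passed after irradiation.

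**Figure D3:**
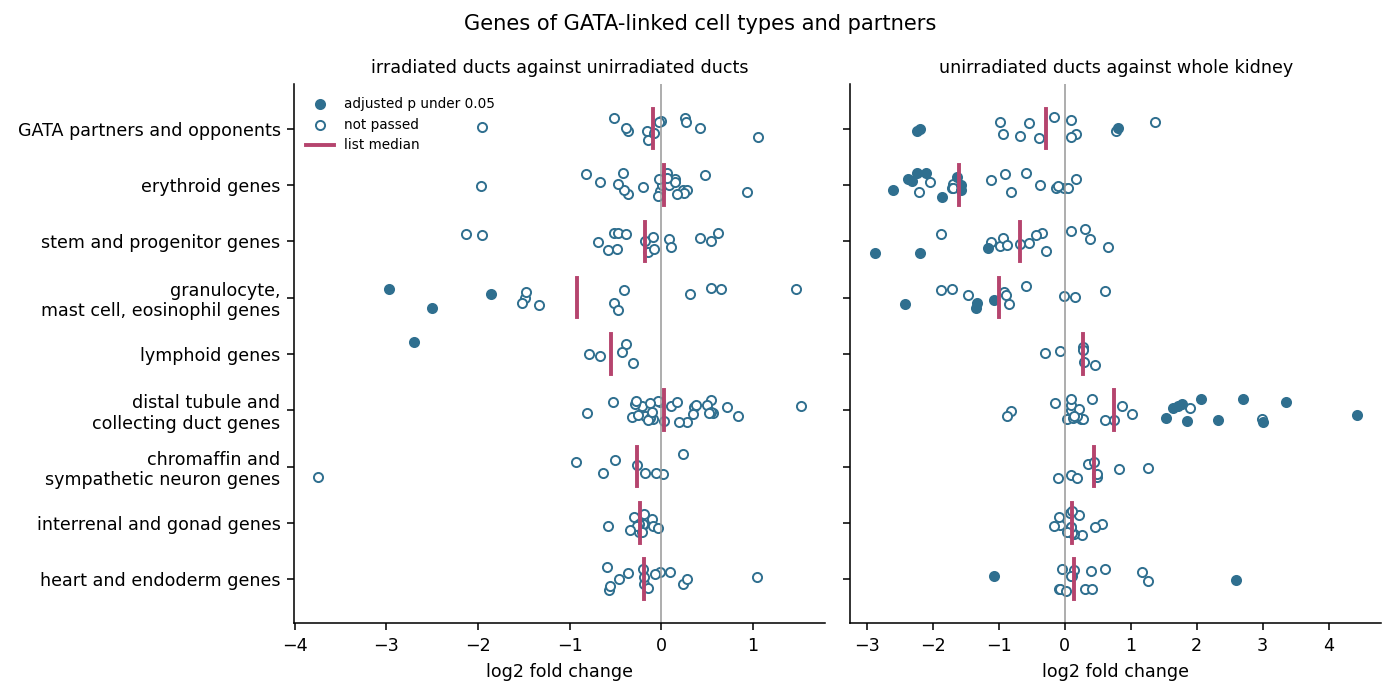
Log2 fold change of each measured gene in 9 lists tied to GATA biology, for irradiated against unirradiated ducts and for unirradiated ducts against whole kidney. Each point is a gene, filled where its adjusted p was under 0.05, and the vertical bars are list medians. Erythroid genes lie mostly left of 0 and duct genes mostly right of 0 in the comparison with kidney.

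The remaining sites of GATA expression gave few calls. Chromaffin cells, which express Gata2 and Gata3, sit in the fish kidney. Their defining genes th and dbh ranged from 3.68 to 4.19 and from 4.80 to 5.13 over the 6 arrays, all under the array medians, and 0 of 9 chromaffin and sympathetic genes passed in any comparison, while 2 did in each kidney comparison without whole kidney replicate 1. Of these 9, 3 were above the array median in each irradiated array, 3 and 4 in unirradiated ducts, and 3 and 1 in whole kidney. The gene ddc read 10.64 and 6.09 in irradiated ducts, 11.99 and 12.23 in unirradiated ducts, and 10.06 and 12.52 in whole kidney. Its difference between irradiated and unirradiated ducts did not pass (-3.74 ± 1.52, limma, adjusted p = 0.351). Interrenal and gonad genes, listed for tissues tied to Gata4 and Gata6, had 0 of 14 above the median in any array and 0 past the threshold. Of 15 heart and endoderm genes, the forkhead gene foxa3 was higher (2.60 ± 0.22, adjusted p = 0.00611) and the nuclear receptor gene hnf4a lower (-1.07 ± 0.19, adjusted p = 0.0344) in unirradiated ducts than in kidney. The foxa3 rise was also called in irradiated ducts against kidney (3.65 ± 0.22, adjusted p = 0.00217), where the other 14 did not pass. Both kidney readings of foxa3 (5.52 and 5.13) were below the medians, which leaves the sizes uncertain. The probe set that stood for hnf4a read -0.78 in irradiated ducts against kidney (limma, adjusted p = 0.06). The other hnf4a probe set was lower in irradiated (-1.50, adjusted p = 0.0141) and unirradiated ducts (-1.60, adjusted p = 0.0185) than in kidney. Without either unirradiated array 0 of the 15 passed in unirradiated ducts, and without either irradiated array 1 did.

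Genes with the most similar pattern were ranked by the root mean square difference of profiles over the 6 arrays, each centred on its own mean, among 8173 named genes. For gata3 the nearest was the occludin gene oclnb, a tight junction gene, at a difference of 0.134. It read 8.20 and 8.02 in irradiated ducts, 7.61 and 7.42 in unirradiated ducts, and 4.66 and 4.34 in whole kidney. Both kidney readings were below the array medians. Next came foxa3 (0.217), the ammonia transporter gene rhbg (0.226), gdpd3a (0.265) and phlda2 (0.27). The rhbg probe set read 10.02 in both irradiated arrays, 9.43 and 8.92 in unirradiated ducts, and 6.86 and 6.10 in whole kidney. Like gata3, all 5 had their highest group mean in irradiated ducts and their lowest in whole kidney, an order that the ranking itself favours.

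For gata2a the nearest genes were cped1 (0.133), the myosin light chain gene myl10 (0.144), the synaptic release gene snap25a (0.167), the homeobox gene hoxd10a (0.172) and the growth factor gene fgf10a (0.197). The cped1 probe set read 7.05 and 7.93 in irradiated ducts, 7.21 and 7.35 in unirradiated ducts, and 5.38 and 5.54 in whole kidney. Like gata2a, all 5 genes had their highest reading in irradiated duct replicate 2. Their kidney readings were all below the array medians. For gata1a the nearest was uros, another haem synthesis gene (0.224), which read 6.38 and 5.87 in irradiated ducts, 6.02 and 5.94 in unirradiated ducts, and 8.27 and 7.08 in whole kidney. The mitochondrial carrier gene slc25a10b (0.234), the transcription factor gene atf5a (0.244), the antimicrobial peptide gene leap2 (0.271) and tent5c (0.282) came next. All 6 readings of slc25a10b and all duct readings of leap2 were below the array medians. In all 5 kidney replicate 1 was higher than replicate 2, as in gata1a. These likenesses describe the 6 arrays and carry no test. The genes were chosen for their profiles in these same arrays, so the shared orders of readings are no separate result.

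**Figure D4:**
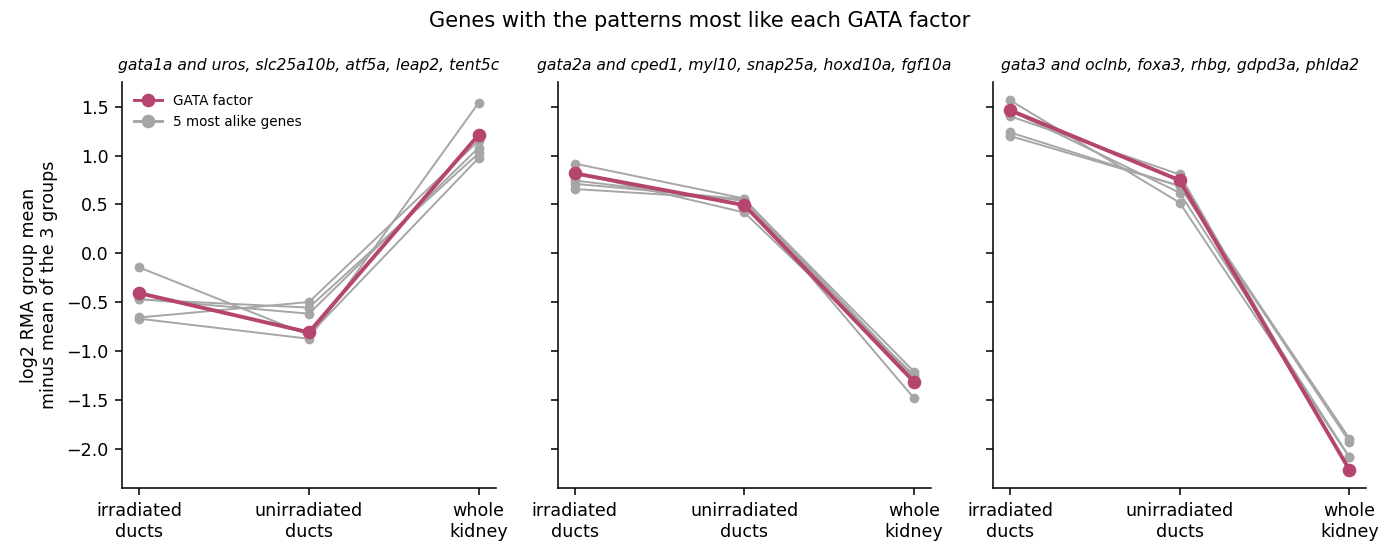
Group means of gata1a, gata2a and gata3 and of the 5 genes most like each, as log2 RMA group mean minus the mean of the 3 groups. Coloured lines are the GATA factors and grey lines the 5 genes named above each panel. The gata1a set peaks in whole kidney, and the gata2a and gata3 sets are lowest there.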

How the data were processed

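RNA of 6 samples was hybridised to zebrafish 3' expression arrays. Values were deposited on a log2 scale after RMA in affy, as the submitters' processing notes state (no versions named). They ran from 2.20 to 14.47, and no value was transformed further. RMA equalises array distributions, so only differences relative to the other transcripts are measured. Of 15617 probe sets, 115 controls were left out. Symbols came from the platform table, updated through a current gene table used for names alone: 10795 tested probe sets named 1 gene, 135 several and 4572 none.

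Groups came from the sample titles and the design text. All 6 arrays entered 1 limma (version 3.58.1, R 4.3.3) fit with 3 residual and 2.83 prior degrees of freedom. Tests are two-sided, and ± SE is the moderated standard error. With 2 arrays a group, exact permutation p values start at 0.333. The number of arrays limits all precision.

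The members and the 11 gene lists (163 of 286 entries measured) were chosen with earlier results of these data known. List counts set beside the share of all probe sets are therefore no test of a list. The lists share some genes, tal1 and fli1 among them, so counts of different lists are not independent. Where a gene had several probe sets, the one of highest mean stood for it. All members are named. Per list and comparison up to 5 genes are named, those past the threshold first and then by smallest p, with defining cell type markers and, for 3 members, the 5 genes of most similar profile. Replicate numbers did not pair the samples.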

Additional observations from a re-analysis of the deposited data

How the results depend on the processing

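The number of arrays limits every call, and levels below the array medians have no firm size. Where leaving out an array left a group with 1, that array was assumed to vary like the other groups. Averaging all probe sets of a gene could not be run, since each GATA gene has 1. In irradiated ducts against kidney gata3 kept its call in all 13 alternatives (3.36 to 3.99), and in both kidney comparisons gata1a, gata2a and gata3 kept their direction in all 13. The cause of the shifts below was not tested, except that fewer arrays or probe sets entered some fits.

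For irradiated against unirradiated ducts the count of all probe sets was 26. It was 0 with the replicate block, 217 for the compared groups alone, 243 with array weights, 16 among probe sets at or above the median mean and 150 centred on the hybridisation controls, and leaving out arrays gave 0 (any duct array) to 217 (either kidney array). The GATA count was 0 throughout. Centred on the hybridisation controls gata4, gata5 and gata6 turned to 1.31, 1.24 and 1.30. Leaving out arrays gave -0.13 to 0.78 for gata2a, -0.18 to 0.10 for gata4, -0.23 to 0.01 for gata5 and -0.09 to 0.01 for gata6.

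For unirradiated ducts against kidney the count was 1126. It was 422 for the compared groups alone, 615 with array weights and 2155 centred on the hybridisation controls, and 0 (without either unirradiated array) to 3373 (without kidney replicate 2) with arrays left out. Centred on the hybridisation controls, with a median of -1.52 over all probe sets, gata1a passed at -3.55 (limma, adjusted p = 0.00114). There the others did not pass, with gata2a at 0.28 and gata3 at 1.43. The GATA count of 2 became 1 under this centring and 1 with array weights, where gata2a was 1.81 (adjusted p = 0.0813). It ran from 0 to 3 with arrays left out. Among probe sets at or above the median mean gata1a passed at -2.02 (adjusted p = 0.0493). Leaving out arrays gave -2.65 to -1.38 for gata1a, 1.68 to 1.93 for gata2a, 2.64 to 3.27 for gata3 and -0.15 to 0.04 for gata4.

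For irradiated ducts against kidney the count was 1620. It was 783 for the compared groups alone and 225 centred on the hybridisation controls, and 308 to 3183 with arrays left out (without irradiated duct replicate 2 and without kidney replicate 2). The GATA count of 2 became 1 centred on the hybridisation controls, where gata2a was 1.95, and ran from 1 to 3 with arrays left out. Leaving out arrays gave -2.25 to -0.98 for gata1a, 1.68 to 2.58 for gata2a and -0.23 to 0.04 for gata4.

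Replicate numbers did not pair the samples: same-numbered deviations correlated at -0.0976, -0.0972 and 0.0633. With the replicate number as a block the GATA counts stayed at 0, 2 and 2, and in unirradiated ducts against kidney gata3 was 2.96 (limma, adjusted p = 0.0168), gata2a 1.81 (adjusted p = 0.0443) and gata1a -2.02 (adjusted p = 0.0679). Of 429 list counts recomputed under the alternatives, 273 were within 1.5 times the reported count and 156 were not. The 273 include reported counts of 0 that stayed at 0, as all of those for interrenal and gonad genes did. They therefore do not measure how firm the lists with calls are.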

Other observations

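Thrombocytes, which need Gata1, had 9 genes measured. Of all probe sets 4.24% were lower and 6.21% higher in irradiated ducts than in kidney, and 2.99% and 4.27% in unirradiated ducts. In irradiated ducts against whole kidney 5 of the 9 were lower and 1 higher, and in unirradiated ducts against whole kidney 2 were lower and 1 higher. The probe set that stood for f13a1b, named after its values were seen, passed in neither (-0.85 in irradiated and 0.30 in unirradiated ducts). Another f13a1b probe set was lower in both (-1.62, limma, adjusted p = 0.00609, and -0.87, adjusted p = 0.041). The last was lower in irradiated ducts (-1.06, adjusted p = 0.0456) and not called in unirradiated ones (-0.93, adjusted p = 0.0724). The integrin gene itga2b, the defining thrombocyte marker CD41, averaged 3.46 in irradiated ducts, 5.62 in unirradiated ducts and 6.43 in whole kidney (n = 2 each). It was lower in irradiated ducts than in kidney by 2.97 ± 0.28 SE (limma, adjusted p = 0.00464) and did not pass between irradiated and unirradiated ducts (-2.16 ± 0.28 SE, adjusted p = 0.09). Both irradiated readings were below the medians, which leaves the size uncertain. Without either unirradiated array 0 of the 9 genes passed in unirradiated ducts against kidney, and without irradiated duct replicate 2 just 1 passed in irradiated ducts. The higher gene in both comparisons was thbs1b, a matrix gene (2.56 ± 0.41 SE in irradiated and 2.45 ± 0.41 SE in unirradiated ducts), and nfe2, a Gata1 partner in thrombocytes and red cells, was lower in both (-1.39 ± 0.25 SE in irradiated and -1.57 ± 0.25 SE in unirradiated ducts).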
